A study of Caenorhabditis elegans with 5 samples.

Results

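The genes described here are 10 *C. elegans* genes of axon outgrowth, cytoskeleton regulation and cargo adaptors, chosen by name for these roles and found by name among the 42048 genes of the deposited table. They are unc-33, unc-44, unc-76, unc-69, unc-51, unc-14, unc-16, unc-34, unc-73 and unc-53. All 10 were found, and all 10 were among the 13787 genes tested, which are those that reached 10 normalised counts in 2 or more of the 5 libraries. Polyadenylated RNA of neurons, isolated by fluorescence-activated sorting from day 1 adults grown at 16 °C, had been sequenced from 3 libraries of thoc-5(wy822) mutants and 2 libraries of wildtype animals. Mutant and wildtype animals alike carried edIs6, known as an integrated unc-119 GFP transgene. The labels describe neither the wy822 lesion nor the cultures behind each library, so a p-value here weighs a difference against the spread of these samples alone, which may be technical. The THO complex, to which THOC-5 belongs, packages new messenger RNA in the nucleus, and the comparison asks how transcript levels in sorted neurons differ when thoc-5 is mutated. No sequence of these genes was used here.

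Axons grow and are kept in order by a microtubule core, a spectrin and ankyrin lattice under the membrane, actin at the growth cone, and motors that carry cargo from the cell body. In *C. elegans*, many of the genes behind these parts were found through uncoordinated (unc) mutants whose axons stop short, wander or fill with misplaced organelles. The 10 genes cover microtubule and membrane organisers (unc-33, unc-44), adaptors and regulators of kinesin-driven transport (unc-76, unc-69, unc-16, unc-14 and the kinase gene unc-51), and regulators of actin and outgrowth (unc-73, unc-34, unc-53).

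Values are normalised read counts, that is, reads divided by the authors' size factor of each library, and a log2 fold change is the mutant mean of log2(normalised count + 1) less the wildtype mean. Every one of the 10 fold changes was above 0, where 52.3% of all genes tested had one above 0. At an adjusted p below 0.05 in limma, 3 of the 10 rose, namely unc-33, unc-76 and unc-16, none fell and 7 did not pass, where 6.97% of all genes tested were called higher and 5.92% lower. For 8 of the 10 genes all 3 mutant libraries lay above both wildtype libraries, which held for 30.1% of all genes tested. The exceptions were unc-69 and unc-34. The median log2 fold change of the 10 was 1.31, beside 0.13 over all genes tested. Summed, the 10 genes took 0.873%, 0.604% and 0.747% of reads in mutant replicates 1 to 3, against 0.209% and 0.139% in wildtype replicates 1 and 2. Both wildtype shares lay below every mutant share, 4.26 times apart on the means, at the smallest p an exact two-sided permutation test of these libraries allows (p = 0.1). Counting error was small beside these gaps, the widest exact (Clopper-Pearson) 95% interval running from 0.867% to 0.880%, in mutant replicate 1.

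**Figure D1:**
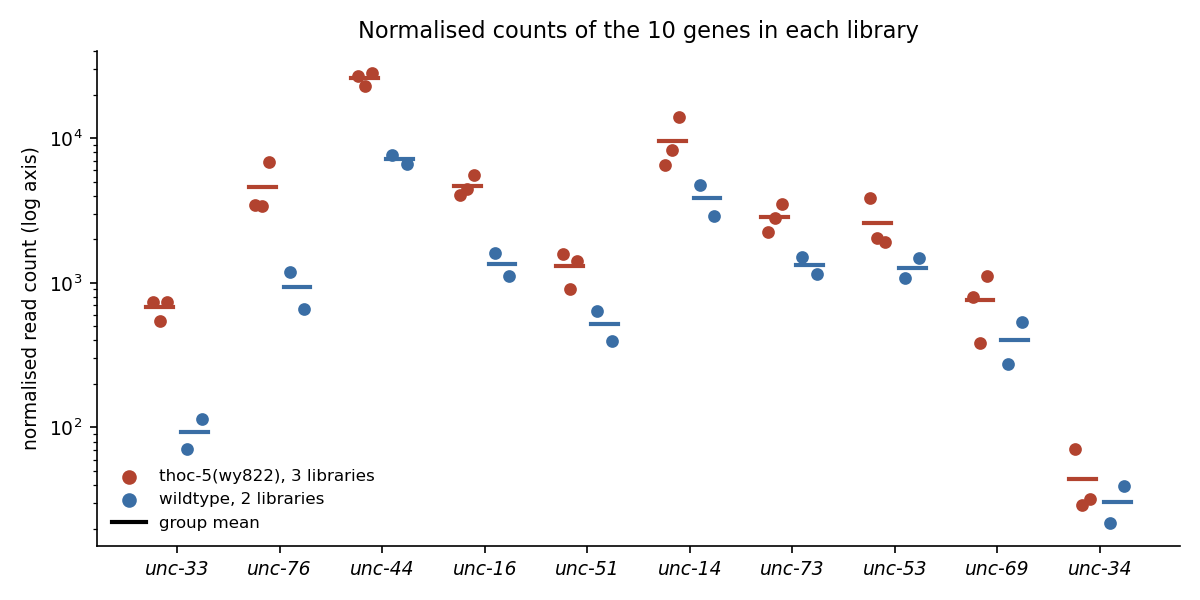
Normalised read counts (log axis) of the 10 genes in each of 3 thoc-5(wy822) libraries (red, left) and 2 wildtype libraries (blue, right), ordered by fold change. Points are libraries and bars are group means. For unc-33 the mutant points lie between 546 and 743, above the wildtype points at 71.5 and 114, whereas the points of unc-69 and unc-34 interleave.

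The calls rest on these particular libraries. None of the 10 was called in limma without any 1 mutant library, where 3 to 5 of the 10 were higher at an unadjusted p below 0.05. In those fits 3734 to 4702 of the 13787 genes tested passed that p in either direction. The calls also depended on the wildtype libraries, and effect sizes with 1 of them left are given further on. edgeR called none of the 10 (4 at an unadjusted p below 0.05) and 0 genes in all (3869 at an unadjusted p below 0.05), whereas DESeq2 and the authors' deposited table each hold 4 of the 10 as higher, unc-44 being the added one, beside 15.4% and 13.4% of all genes. Quantile scaling in limma also called unc-44 (log2 fold change 2.52, adjusted p = 0.0425), for 4 of the 10 beside 10.1% of all genes called higher. With a pseudocount of 0.5 or with no filter 1 of the 10 was called, beside 4.8% and 2.82% of all genes. Libraries held 6.80 to 8.69 M counted reads in the mutant and 10.2 to 10.3 M in wildtype. The mutated gene itself, listed as Y32H12A.2, had normalised counts of 78.3, 34.6 and 12.7 in mutant replicates 1 to 3, against 154 and 122.2 in wildtype replicates 1 and 2, which did not pass the test (log2 fold change -2.03, SE 0.90, adjusted p = 0.148).

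Summed reads of markers of neurons and of most other tissues differed between the genotypes. The 16 pan-neuronal markers took 1.06% to 1.85% of the reads of the mutant libraries, against 0.0328% to 0.418% in wildtype, and 5 of 16 were called higher; unc-31 had 0 reads in wildtype replicate 2. Body wall muscle markers took 1.14% to 1.48% in the mutant and 3.13% to 6.02% in wildtype (8 of 13 tested lower). Intestine markers took 0.0521% to 0.211% and 0.640% to 0.744% (5 of 13 lower), and germline markers 0.0143% to 0.0287% and 0.0944% to 0.240% (8 of 13 lower). Epidermis markers took 0.190% to 0.838% in the mutant and 3.77% to 4.61% in wildtype, a gap that few genes carried: col-140 alone had 399414 of the 475451 epidermis reads in wildtype replicate 1. Of 14 epidermis markers 3 fell (col-19, col-140 and grd-5), 6 had a log2 fold change above 0, and DESeq2 and the authors' deposited table each hold 1 as higher. The epidermis median was -0.10, 0.09 without wildtype replicate 2 and -1.02 without wildtype replicate 1. Glia markers overlapped, at 0.00883% to 0.0170% in the mutant and 0.00958% to 0.0122% in wildtype, with none of 9 called in either direction by limma, edgeR, DESeq2 or the authors (0 at an unadjusted p below 0.05). Coelomocyte markers took 0.160% to 0.278% in the mutant and 0.00911% to 0.0352% in wildtype (2 of 5 higher). The 2 called, cup-4 and lgc-26, had 5756 and 3647 of the 11797 coelomocyte reads in mutant replicate 1. Another of the 5 went the other way (log2 fold change -0.91), with all mutant libraries below wildtype. The coelomocyte median was 3.69, and 1.33 without wildtype replicate 2. Of the markers, dpy-7, bli-1, elt-2, ges-1, mtl-1, mex-5, oma-1, oma-2, spn-4, nos-2 and daf-6 were at 0 reads in at least 1 mutant library, fig-1 and hlh-17 in wildtype replicate 2, and mir-228 in all 5. In such bulk samples fewer cells of a type and less RNA per cell cannot be told apart, and the part of these markers in the values of the 10 genes was not tested beyond the scaling to pan-neuronal markers given further on.

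Of the microtubule and membrane organisers, unc-33 had the highest log2 fold change of the 10. unc-33 encodes a relative of the collapsin response mediator proteins (CRMPs) that organises axonal microtubules. unc-33 had normalised counts of 743, 546 and 742 in mutant replicates 1 to 3, against 71.5 and 114 in wildtype replicates 1 and 2. The lowest mutant library was 4.80 times the highest wildtype library, the widest such gap of the 10. unc-33 averaged 677 ± 113 in the mutant (SD, n = 3) and 92.6 ± 29.8 in wildtype (SD, n = 2). The log2 fold change was 2.88 (SE 0.45, 95% interval 1.80 to 3.96, adjusted p = 0.0382), which lay above that of 82.9% of all genes tested.

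unc-44 encodes the ankyrin that anchors membrane proteins to the spectrin lattice, and it places UNC-33 in the axon. It was counted at 26975, 22967 and 28154 in mutant replicates 1 to 3, against 7644 and 6688 in wildtype replicates 1 and 2. All mutant libraries were thus at least 3.00 times the higher wildtype library, and the libraries of each group lay close together. A log2 fold change of 1.86 (SE 0.58, 95% interval 0.47 to 3.25) did not pass (adjusted p = 0.0715), while the authors' deposited table gives 1.82 (SE 0.49, adjusted p = 0.00252). unc-44 supplied 44.5% to 53.6% of the reads of the 10 genes in the mutant libraries and 40.6% and 44.3% in wildtype. Per unc-44 count, unc-33 stood at log2 ratios of -5.18, -5.39 and -5.24 in the mutant libraries, against -6.72 and -5.87 in wildtype. The groups did not overlap, with a difference of 1.02 at the smallest p the exact permutation test allows (p = 0.1, 0.333 after adjustment over the 5 gene pairs compared).

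Among the transport adaptors, unc-76 and unc-16 rose. unc-76 encodes the FEZ adaptor that links cargo to kinesin and is needed for axon bundling. In normalised counts it stood at 3461, 3419 and 6818 in mutant replicates 1 to 3, against 1197 and 663 in wildtype replicates 1 and 2. Mutant replicate 3 stood apart from the other mutant libraries, at 1.99 times the lowest of them, and all 3 lay above wildtype. Its log2 fold change was 2.28 (SE 0.53, 95% interval 1.00 to 3.55, adjusted p = 0.0449).

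unc-16 encodes the worm homolog of JIP3, a scaffold that joins kinesin to the JNK kinases and keeps organelles out of the axon. unc-16 had normalised counts of 4057, 4472 and 5553 in mutant replicates 1 to 3, against 1610.0 and 1110.3 in wildtype replicates 1 and 2. The groups were well apart, the lowest mutant library being 2.52 times the highest wildtype library. This gave a log2 fold change of 1.80 (SE 0.44, 95% interval 0.75 to 2.85, adjusted p = 0.0476).

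unc-69 encodes a short coiled-coil protein that binds UNC-76. In normalised counts it stood at 801, 382 and 1117 in mutant replicates 1 to 3, against 275 and 533 in wildtype replicates 1 and 2. Mutant replicate 2 lay below wildtype replicate 2, so the groups overlapped, and the mutant libraries spread 2.93-fold, the widest spread of the 10. Its log2 fold change was 0.87 (SE 0.60, 95% interval -0.57 to 2.30, adjusted p = 0.325). The log2 ratio of unc-76 to its partner unc-69 was 2.11, 3.16 and 2.61 in the mutant libraries and 2.12 and 0.31 in wildtype, and these overlapped too (exact permutation p = 0.2, adjusted p = 0.333).

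unc-14 encodes a RUN domain protein that binds the kinesin light chain and the UNC-51 kinase. unc-14 had normalised counts of 6482, 8236 and 14008 in mutant replicates 1 to 3, against 4772 and 2916 in wildtype replicates 1 and 2. The groups did not overlap, but the lowest mutant library was only 1.36 times the highest wildtype library. This gave a log2 fold change of 1.28 (SE 0.57, 95% interval -0.09 to 2.66, adjusted p = 0.152).

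unc-51 encodes the worm ULK1 kinase, which acts in axon outgrowth and starts autophagy. In normalised counts it stood at 1578, 911 and 1420.2 in mutant replicates 1 to 3, against 643 and 394 in wildtype replicates 1 and 2. Mutant replicate 2 came closest to wildtype. The log2 fold change was 1.33 (SE 0.46, 95% interval 0.23 to 2.44) and did not pass (adjusted p = 0.0871). The log2 ratio of unc-51 to unc-14 averaged -2.84 ± 0.70 in the mutant (SD, n = 3) and stood at -2.89 and -2.88 in wildtype replicates 1 and 2, a difference of 0.05 (exact permutation p = 1). That difference is smaller than the spread among the mutant libraries, whose ratios ran between -3.30 and -2.04. unc-16 per unc-14 count likewise overlapped, at -0.68, -0.88 and -1.33 in the mutant and -1.57 and -1.39 in wildtype (exact permutation p = 0.2, adjusted p = 0.333).

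None of the actin and outgrowth regulators passed the test. unc-73 encodes Trio, a guanine nucleotide exchange factor that acts in axon guidance. Its normalised counts were 2265, 2824 and 3491 in mutant replicates 1 to 3, against 1518 and 1150 in wildtype replicates 1 and 2. The groups did not overlap, and the log2 fold change was 1.09 (SE 0.43, 95% interval 0.06 to 2.12, adjusted p = 0.115).

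unc-53 encodes the neuron navigator homolog, which guides cell and axon extension along the body axis. unc-53 had normalised counts of 3892, 2031 and 1920.2 in mutant replicates 1 to 3, against 1073 and 1482 in wildtype replicates 1 and 2. Mutant replicate 1 stood well above the other mutant libraries, and without it the log2 fold change was 0.65 rather than 0.97 (SE 0.49, 95% interval -0.21 to 2.15, adjusted p = 0.196).

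unc-34 encodes Enabled, an Ena/VASP protein that promotes the growth of actin filaments. It was the lowest of the 10, with 90, 26 and 33 reads in mutant replicates 1 to 3 and 25 and 37 reads in wildtype replicates 1 and 2. In normalised counts these are 70.5, 29.0 and 32.2 in the mutant libraries, against 21.8 and 39.3 in wildtype. Wildtype replicate 2 lay above 2 of the 3 mutant libraries, and the log2 fold change of 0.45 had a 95% interval of -1.54 to 2.44 (SE 0.83, adjusted p = 0.725). A change as large as that of unc-76, at 2.28, lies inside that interval and is therefore not excluded for unc-34. The log2 ratio of unc-73 to unc-34 overlapped between groups, at 4.99, 6.56 and 6.72 in the mutant and 6.06 and 4.84 in wildtype (exact permutation p = 0.5, adjusted p = 0.625).

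**Figure D2:**
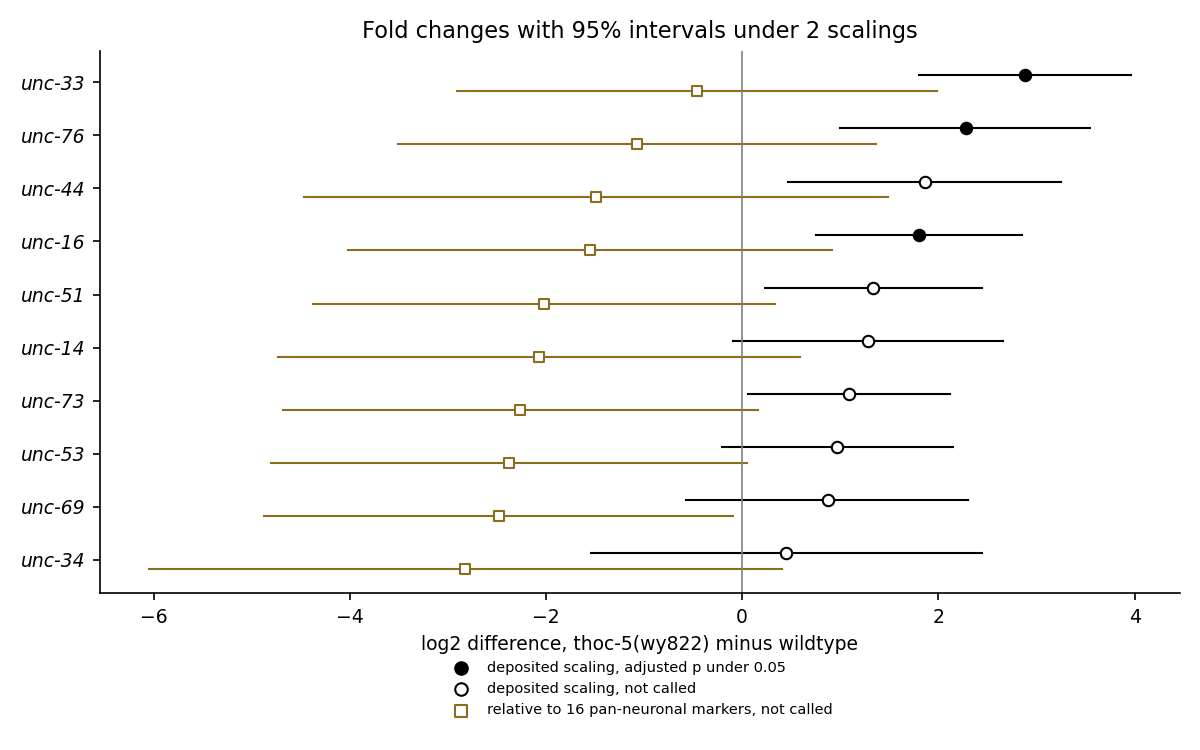
Log2 differences, thoc-5(wy822) minus wildtype, with 95% intervals from limma, for the deposited scaling (circles, filled where the adjusted p was below 0.05) and relative to 16 pan-neuronal markers (squares, none called). With the deposited scaling all 10 points lie between 0.45 and 2.88; relative to the pan-neuronal markers all 10 lie between -2.82 and -0.46, with wide intervals.

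The median fold change of the 10 genes, 1.31, was lower than that of the pan-neuronal markers, 3.50, and the 2 wildtype libraries differed far more in the markers than in the 10 genes. The geometric mean of the 16 markers, which include vesicle, fusion and peptide-processing genes, was 1603, 1143 and 1477 in mutant replicates 1 to 3, against 367 and 50.8 in wildtype replicates 1 and 2. Between wildtype libraries, 14 of the 16 markers were lower in replicate 2, with a median log2 difference (replicate 2 minus replicate 1) of -3.51. Of the 10 genes 6 were lower in wildtype replicate 2, a share near that of all genes tested (7928 of 13787). The median of the 10 was only -0.30, with a range of -0.85 to 0.95, beside -0.26 over all genes tested. The 6 were unc-44, unc-76, unc-16, unc-51, unc-14 and unc-73, while unc-33, unc-69, unc-34 and unc-53 were higher in replicate 2. unc-44, for example, stood at log2 ratios to the marker mean of 4.07, 4.33 and 4.25 in the mutant libraries, close to 4.38 in wildtype replicate 1 and far from 7.04 in wildtype replicate 2.

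Scaled so that the pan-neuronal mean was equal in all libraries, all 10 log2 differences turned negative, from -0.46 for unc-33 to -2.82 for unc-34, and none was called in limma (adjusted p from 0.0763 to 0.761, with unc-69 lower at an unadjusted p of 0.0424; 1.20% of all genes were called higher and 47.8% lower). This scaling divides each library by a single factor, so it shifted most genes by a similar amount and moved the median of all genes tested to -3.11. Relative to that median unc-33 lay at 2.65, unc-76 at 2.04, unc-44 at 1.62 and unc-34 at 0.29. These positions restate those of the deposited scaling, at 2.75, 2.15, 1.73 and 0.32 relative to its own median, and are no further result. The same scaling was also run without wildtype replicate 2, a setting chosen after seeing the data. It gave 1.30 for unc-33, -0.07 for unc-76, -0.16 for unc-44, -0.39 for unc-16 and -0.57 to -1.03 for the other 6. These are effect sizes against 1 wildtype library. That setting moved the median of all genes tested to -1.78. All 10 differences lay above this median, which the common shift carries over from the deposited scaling. The log2 ratios of unc-33 to the marker mean were -1.11, -1.06 and -0.99 in mutant replicates 1 to 3 against -2.34 in wildtype replicate 1. In wildtype replicate 2 its ratio was 1.18.

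**Figure D3:**
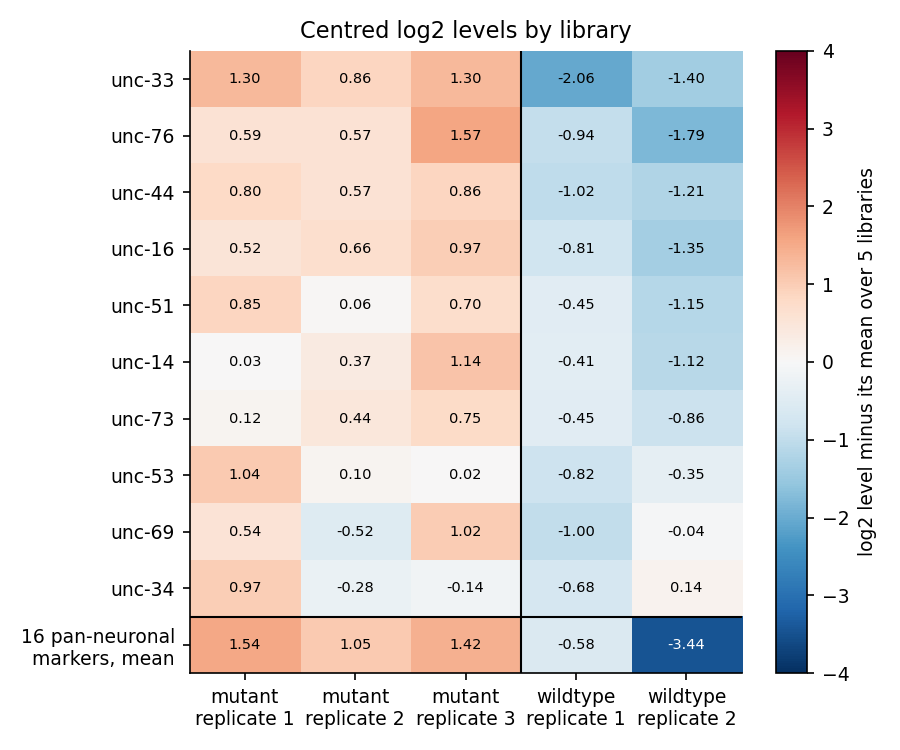
Log2 levels of the 10 genes and of the mean of 16 pan-neuronal markers in each library, each row minus its own mean over the 5 libraries (red higher, blue lower), with the 3 mutant libraries left of the 2 wildtype libraries. Rows of unc-44, unc-16 and unc-76 are red in all mutant libraries and blue in both wildtype libraries; the marker row is darkest in wildtype replicate 2, where unc-69 and unc-34 are near 0 at -0.04 and 0.14.

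The 10 genes fell into graded patterns over the libraries. Around the median profile of the 10, which stood at 0.70, 0.41 and 0.92 log2 units in mutant replicates 1 to 3 and at -0.81 and -1.14 in wildtype replicates 1 and 2, unc-44 and unc-16 lay nearest, at root mean square distances of 0.13 and 0.17. unc-34, unc-33 and unc-69 lay farthest, at 0.82, 0.68 and 0.65. unc-33 was far because its contrast was wide, and unc-34 and unc-69 because their libraries interleaved. unc-76, unc-44, unc-16, unc-14, unc-73 and unc-69 had their highest value in mutant replicate 3, and unc-33, unc-51, unc-53 and unc-34 in mutant replicate 1. Of 6780 other genes with a mean of 100 or more, those nearest to the median profile were cnx-1, the calnexin gene (distance 0.08), sdc-1, a gene of sex determination and dosage compensation (0.09), cdgs-1, of phospholipid synthesis (0.10), dlk-1, a kinase gene of axon regeneration (0.11), and ZK1320.11 (0.11). Their log2 fold changes were 1.68 for cnx-1, 1.80 for sdc-1, 1.77 for cdgs-1, 1.58 for dlk-1 and 1.76 for ZK1320.11, over 5 libraries each. The genes were picked for their match to that profile in these same libraries. Similar fold changes follow from that choice and are no further result. dlk-1 is also among the JNK and p38 cascade genes counted further on.

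Fold changes kept their sign whichever library was left out. That of unc-44 moved least, between 1.76 and 1.95, and that of unc-33 ran from 2.55 without wildtype replicate 1 to 3.21 without wildtype replicate 2. The opposite library mattered for unc-76 and unc-16, which ran from 1.85 and 1.53 without wildtype replicate 2 to 2.70 and 2.07 without wildtype replicate 1. The values of unc-51 and unc-14 were 0.98 and 0.93 without wildtype replicate 2, and 1.68 and 1.64 without wildtype replicate 1. Those of unc-69 and unc-34 dropped to 0.39 and 0.04 without wildtype replicate 1 and stood at 1.34 and 0.86 without wildtype replicate 2. Adjusted p over these fits was 0.0271 to 0.133 for unc-33, 0.0504 to 0.176 for unc-76, 0.0510 to 0.160 for unc-16 and 0.0937 to 0.233 for unc-44.

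**Figure D4:**
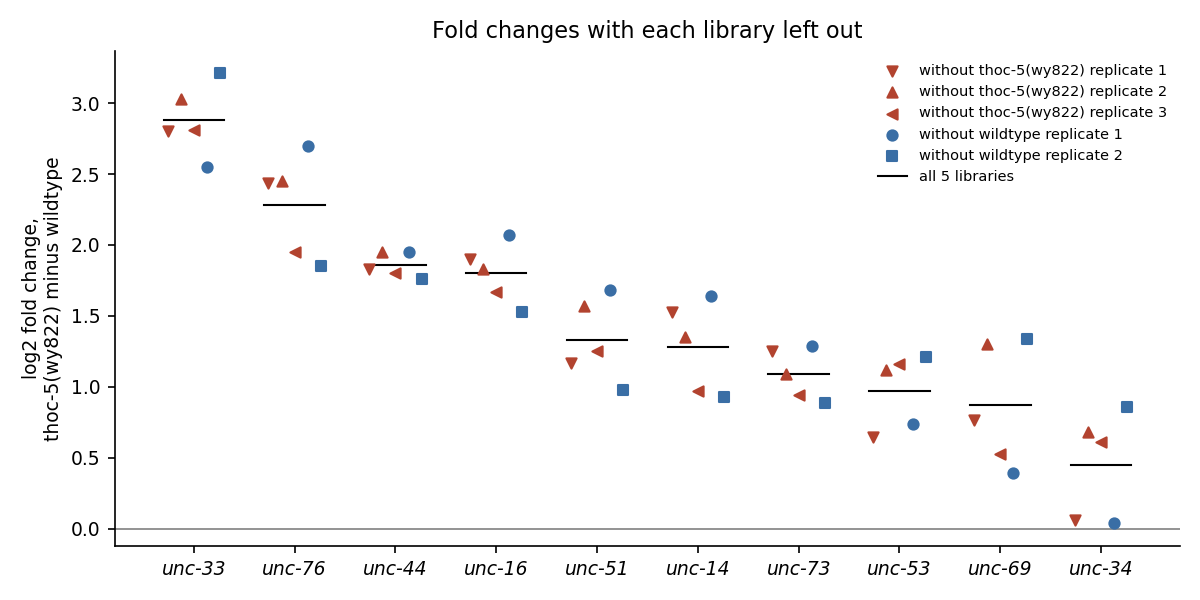
Log2 fold changes (thoc-5(wy822) minus wildtype) of the 10 genes from limma with each library left out in turn (red symbols, a mutant library left out; blue symbols, a wildtype library left out) beside the value with all 5 libraries (black bar). Every symbol lies above 0; those of unc-44 lie within 1.76 to 1.95, and those of unc-69 spread from 0.39 to 1.34.

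Levels between genes were compared as normalised counts per kilobase of annotated exons. In the mutant libraries unc-14 ranked first, at 3751 ± 1542 per kilobase (SD, n = 3), ahead of unc-76 (1738 ± 743), and their ranges over libraries overlapped. Clear of unc-76 came unc-44 (1135 ± 118.5), unc-69 (793 ± 382), unc-16 (751 ± 124), unc-53 (492 ± 209), unc-51 (449.7 ± 120.3) and unc-73 (286 ± 61.3), each overlapping the next in range. unc-33 (188 ± 31.5) and unc-34 (14.7 ± 7.73) were lowest, and neither overlapped the gene above it. In wildtype unc-14 was again first, at 1506 ± 514 per kilobase (SD, n = 2), clear of unc-69 (418 ± 189), unc-76 (354 ± 144) and unc-44 (312 ± 29.5), which overlapped one another in that order. Below them came unc-53 (240.4 ± 54.5) and unc-16 (218 ± 56.5), whose ranges were clear of unc-44 but overlapped that of unc-76. After these came unc-51 (179 ± 60.7) and unc-73 (133 ± 26.1). From unc-53 to unc-73 each gene overlapped the next. As in the mutant, unc-33 (25.8 ± 8.29) and unc-34 (10.2 ± 4.14) were last. unc-44, despite the highest count, thus ranked below unc-14 per kilobase in each group, since its exons span 22.9 kb in all. That length joins the exons of its 9 annotated transcripts. Neither the transcripts in use nor the evenness of reads along the exons was tested, for this gene or the others.

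The annotation used for lengths is that of WBcel235, which differs from the ce10 build named by the submitters. There unc-33 (WBGene00006769) lies on chromosome IV, 3516886 to 3526602, plus strand, and unc-44 (WBGene00006780) on chromosome IV, 5975557 to 6004857, plus strand. unc-76 (WBGene00006808) lies on chromosome V, 15071760 to 15080152, plus strand, and unc-16 (WBGene00006755) on chromosome III, 9546258 to 9557450, plus strand. The genes differ in isoforms, from 1 coding transcript for unc-51 and unc-14 to 17 for unc-16, and in longest protein, from 176 residues for UNC-69 to 6994 for UNC-44. Counts are per gene, so isoforms, such as the giant neuronal ankyrin, cannot be told apart. The kits named in the labels do not mark strand, so reads of overlapping genes cannot be assigned by strand. Exons of unc-76 share 19 bases with C01G10.10, those of unc-34 share 29 bases with Y50D4C.5, those of unc-53 share 78 bases with ilkp-1 (1.47% of its exons), and those of unc-16 share 379 bases with ZK1098.11 (6.06% of its exons). ZK1098.11 had a mean normalised count of 19.8 over all libraries, small beside unc-16.

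Other genes of the same machinery were described in 4 lists, which held 52 tested genes together. Of these 52 genes 8 rose and 1 fell, with a median log2 fold change of 0.92, beside 6.97% called higher and 0.13 over all genes tested. Among kinesin, dynein and cargo adaptor genes 1 of 14 rose (7.14%), a share near that of all genes tested. That gene was unc-104, the synaptic vesicle kinesin. It stood at 13041, 10022 and 12462 in mutant replicates 1 to 3, against 2430 and 495 in wildtype replicates 1 and 2 (log2 fold change 3.42, SE 0.73, adjusted p = 0.0420, and 2.28 without wildtype replicate 2). The list median was 1.02.

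Among spectrin and microtubule organisers 4 of 13 rose and 1 fell, with a median of 1.08. The 2 spectrin genes that work with the UNC-44 ankyrin were among them. unc-70, β-spectrin, stood at 7210.3, 5079 and 4350.2 in mutant replicates 1 to 3, against 977 and 362 in wildtype replicates 1 and 2 (log2 fold change 3.19, SE 0.56, adjusted p = 0.0384, and 2.47 without wildtype replicate 2). spc-1, α-spectrin, stood at 15075, 12810.0 and 16229 in the mutant, against 3467 and 1091 in wildtype (log2 fold change 2.91, SE 0.63, adjusted p = 0.0429). The microtubule-associated tau relative ptl-1, named after its value was seen, rose by 2.36. unc-119 rose by 3.01, but edIs6 may add to its reads. The gene that fell was dhp-1, a dihydropyrimidinase related in sequence to the CRMP encoded by unc-33, at 28.2, 55.8 and 20.5 in the mutant libraries, against 683 and 1033 in wildtype (log2 fold change -4.68, SE 0.63, adjusted p = 0.0382). The list median without wildtype replicate 2 was 0.36.

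In the list of the UNC-51 pathway and autophagy 1 of 15 rose (6.67%), a share near the 6.97% of all genes tested. That gene was rpm-1 (2.92), a ubiquitin ligase that ends axon growth. The median was -0.10, turning to 0.19 without wildtype replicate 1 and standing at -0.39 without wildtype replicate 2. Of the JNK and p38 cascade 2 of 10 rose, with a median of 1.54. These were jkk-1, the gene of a kinase that activates JNK, at 972, 657 and 1454 in the mutant libraries against 205 and 18.1 in wildtype (log2 fold change 3.96, SE 1.00, adjusted p = 0.0490, and 2.25 without wildtype replicate 2), and the p38 gene pmk-3 (2.31). All genes called in these lists lost their call in limma without any 1 mutant library and without wildtype replicate 2, as did all genes tested.

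The median of the 10 genes, 1.31, was lower than those of the axon guidance, tubulin and pan-neuronal lists. It lay above that of the 4 lists of the same machinery together, 0.92. The single medians of those lists were -0.10, 1.02, 1.08 and 1.54. Over all genes tested 6.97% were called higher. Of 25 axon guidance cue and receptor genes tested 5 rose and none fell, with a median of 2.49. They were eva-1 (log2 fold change 2.56), lin-17 (2.25), the netrin gene unc-6 (2.15), clr-1 (2.11) and the ephrin receptor gene vab-1 (1.88). Of 15 alpha- and beta-tubulin genes 3 rose, with a median of 2.18, including the β-tubulin gene ben-1 (2.78) and the α-tubulin gene tba-9 (2.72). The third, tba-5, had 14, 16 and 30 reads in the mutant libraries and none in wildtype. The pan-neuronal median was 3.50. Fold changes above 0 were not particular to the 10 genes, since all 25 guidance genes, all 16 pan-neuronal markers and 14 of the 15 tubulin genes had them. All 3 mutant libraries lay above both wildtype libraries for 23 of the 25 guidance genes, 14 of the 16 markers and 9 of the 15 tubulin genes. This held for 30.1% of all genes tested. Without wildtype replicate 2 these medians were 1.58, 1.58 and 1.97 for guidance, tubulin and pan-neuronal genes, and 1.28 for the 10 genes described. The difference between the lists was not tested.

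**Figure D5:**
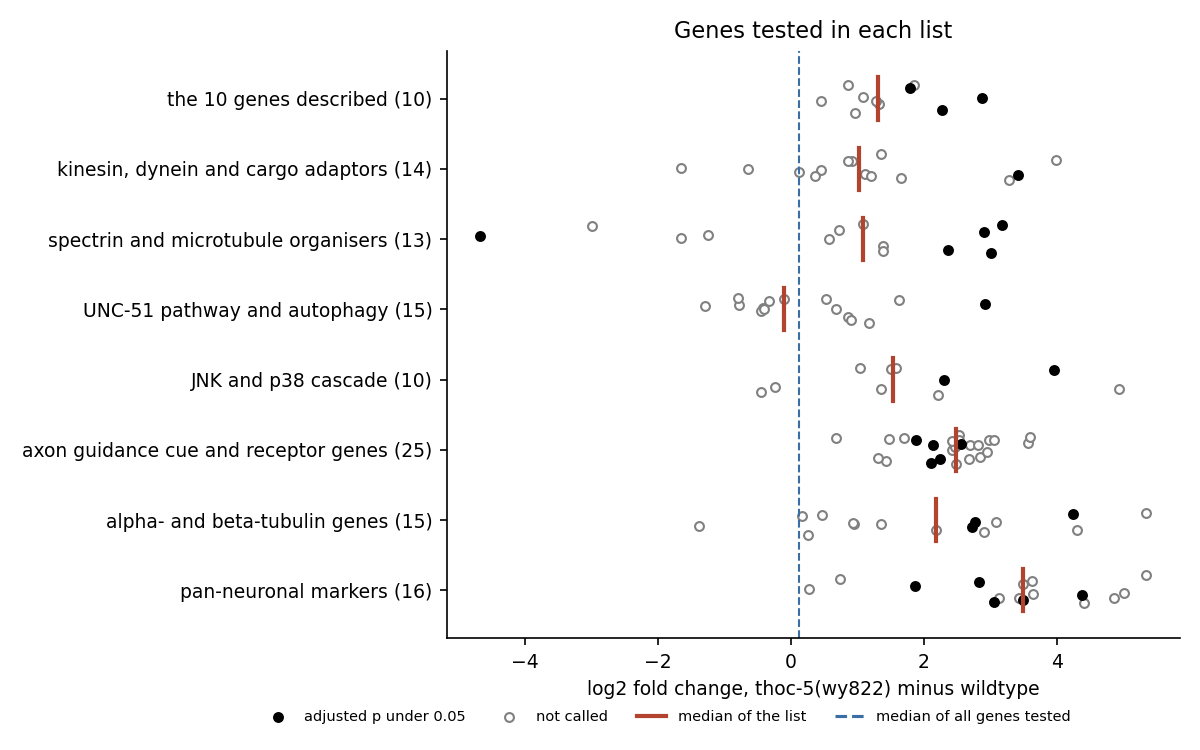
Log2 fold changes (thoc-5(wy822) minus wildtype) of the genes tested in each list, with the number tested in brackets. Filled points had an adjusted p below 0.05, red bars are list medians and the dashed line is the median of all genes tested (0.13). All points of the 10 genes described lie right of 0, from 0.45 to 2.88, as do those of the axon guidance genes (0.67 to 3.60) and the pan-neuronal markers (0.27 to 5.35). Those of the other lists lie on both sides of 0.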

How the data were processed

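The authors deposited 1 table of 42048 genes. Its per-library values are a signal: per library, the authors divided gene counts by a size factor, which the values show, since 100% of values are whole multiples of 1 read (tolerance 1e-04 reads). It also holds the authors' log2 fold change, its standard error and test statistic (scores), and their p-value, per the file headers. The submitters' processing notes name Trim Galore, STAR 2.4.2a, DESeq2 and ce10; of the counter and annotation nothing is stated in the sources. Tests used limma 3.58.1 under R 4.3.3 (eBayes with a trend) on log2(value + 1) over genes at 10 or more in at least 2 libraries, with Benjamini-Hochberg adjustment over all genes and a two-sided threshold of 0.05. The size factors make these values no raw counts, so edgeR 4.0.16 and DESeq2 1.42.0 on recovered reads were alternatives. The others were upper quartile, quantile and pan-neuronal scaling, a filter of 50 or none, a pseudocount of 0.5 or 8, a replicate block, the authors' p-values and leaving out each library. Where 1 wildtype library remained, its variance was taken to equal that of the mutant group. Depth was 7.36, 6.80 and 8.69 M reads in mutant replicates 1 to 3 and 10.3 and 10.2 M in wildtype replicates 1 and 2; without molecular identifiers, intervals cover counting error only. The script was tested on simulated counts with the same dispersion for every gene and no tissue differences between libraries. That test does not cover the dependence of the calls on single libraries. The table named 189 of 192 list entries; 1 further list of pathway genes is not reported here. Named genes are the 10 genes, in each list the called genes with the smallest p (at most 4, or 2 where none was called), the 5 nearest profiles and thoc-5; ptl-1 and vab-1 were named after their values were seen. The 10 genes and the lists were chosen with earlier results of these data known.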

Additional observations from a re-analysis of the deposited data

How the results depend on the processing

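Genes called numbered 1777 (961 higher), and 3 of the 10 genes were among them. The totals were 3217 with a pseudocount of 8, 1079 without a filter, 6758 with pan-neuronal scaling, 3718 in DESeq2, 3717 in the authors' deposited table and 0 in edgeR. Of the 10 genes, 1 was called with a pseudocount of 0.5 (1230 genes in all) and without a filter, 4 with quantile scaling, and 0 in edgeR (3869 genes at an unadjusted p below 0.05) and with pan-neuronal scaling. Leaving out 1 library gave 0 to 2647 genes called and 0 to 1 of the 10, with 3415 to 5147 genes at an unadjusted p below 0.05. The median of the 10 was 1.31, and 1.20 to 1.66 with 1 library left out. With the replicate block 0 genes and 0 of the 10 were called (3951 at an unadjusted p below 0.05). The numbers are not known to pair libraries. Deviations of same-numbered libraries correlated at 0.00931 and 0.111, and those of mutant replicate 3 and wildtype replicate 1 also at 0.111. With only 2 wildtype libraries their deviations are exact opposites, so these correlations cannot tell whether libraries pair. Pan-neuronal scaling reversed the median of the 10 to -2.04, beside -3.11 over all genes tested, and the single values to -0.46 (unc-33), -1.07 (unc-76), -1.49 (unc-44), -1.55 (unc-16), -2.02 (unc-51), -2.07 (unc-14), -2.26 (unc-73), -2.38 (unc-53), -2.48 (unc-69) and -2.82 (unc-34). Without wildtype replicate 2 as well, chosen after seeing the data, the median was -0.65 beside -1.78 over all genes tested. Only unc-33 stayed above 0, at 1.30. The other values were -0.07 (unc-76), -0.16 (unc-44), -0.39 (unc-16), -0.57 (unc-69), -0.72 (unc-53), -0.94 (unc-51), -0.99 (unc-34), -1.0 (unc-14) and -1.03 (unc-73). By construction this scaling sets the marker mean equal in all libraries and shifts most genes by a similar amount. Under every other alternative the 10 values stayed above 0, with unc-34 not tested at the filter of 50. Depth limits unc-34 most, with 25 to 90 reads a library.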
